A study of Mus musculus with 2 samples.

Results

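The genes described here are 9 integrin chains that hold T cells in tissues or guide them there, Itgae, Itga1, Itga4, Itgb1, Itgb7, Itgal, Itgb2, Itgb3 and Itgav. They were taken by symbol from the 27998 genes of the count tables, and each symbol was found once. Their level was read by thymic stage and by liver cell type in single γδ T cells. These cells carry the γδ form of the T cell receptor and leave the thymus for barrier tissues and organs such as the liver.

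The data were 1 library of hepatic and 1 library of thymic γδ T cells, both sorted as CD3e+ TCRγ/δ+ cells from untreated wild type C57BL/6J mice aged 8 weeks. Thymic cells had first passed a depletion of CD4 and CD8 cells on magnetic beads. The study names its mice for the whole experiment and does not divide them between the libraries. With 1 library per tissue, no test between tissues or classes could be made. A level is given as CPM, which is the sum of a gene's unique molecular identifiers (UMIs) in a group of cells, scaled to a total of 1000000, and its range in parentheses is an exact Poisson 95% interval. The interval of a ratio is the exact conditional binomial one, and no interval covers more than counting error.

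Integrins are surface receptors made of 1 α and 1 β chain. Itgae (αE, CD103) pairs with Itgb7 to bind E-cadherin on epithelium, and Itga4 (α4, CD49d) pairs with Itgb7 to bind MAdCAM-1 on gut vessels or with Itgb1 (β1, CD29) to bind VCAM-1 and fibronectin. Itga1 (α1, CD49a) with Itgb1 binds collagen and marks resident lymphocytes of the liver. Itgal (αL, CD11a) with Itgb2 (β2, CD18) forms LFA-1, the receptor for ICAM-1, while Itgav (αv, CD51) with Itgb3 (β3, CD61) or Itgb1 binds matrix proteins and latent TGF-β.

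After the limits of 800 to 4000 genes and at most 6% mitochondrial UMIs, 8075 of 8658 hepatic and 4351 of 4541 thymic barcodes remained, with medians of 2741 and 3271 UMIs per cell. The libraries shared 60 barcodes, 56 of them kept in both. Clustering without the 9 chains gave 12 clusters. The study's class names C1 to C8 were given with the ending "-like", from markers only. In the thymus these were 2 clusters of C1-like cells, which express genes of early γδ progenitors, with 1264 cells in cluster 2, led by Tnfsf11, and 1187 cells in cluster 4, led by Tox2. There were also 178 C3-like cells (Ly6c2, Dapl1), 166 C6-like cells (Il17a, the IL-17-producing type), 532 cells of cluster 7, led by cell cycle genes, and 1006 cells of cluster 5, led by S1pr1 and Cd200. Cluster 5 stayed without a name because 3 of its 10 leading genes were hemoglobin genes. In the liver there were 2962 C5-like (Gzmb, Ccl4), 2644 C4-like (Cd40lg, Socs2), 1081 C3-like, 794 C6-like, 274 C7-like (Klrg1, Klra7), 105 C8-like cells, 79 cells of cluster 5 and 75 of cluster 10, led by interferon-induced genes. The 4 Cd3 chain genes summed to 3372 CPM in the thymus and 4029 CPM in the liver, but to 909 CPM in C8-like cells, in which 9 myeloid genes summed to 28167 CPM against at most 63.9 CPM in the other liver groups. The 14 groups of at least 50 cells are used below. Clusters are not replicates, and the classes were rebuilt here, so a class may not hold the same cells as the class of that name in the study.

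Itgae was highest in 2 thymic groups and lowest in the 2 most numerous liver classes. In the thymus its level was 120 CPM (91.7 to 155) in C6-like and 116 CPM (90.4 to 148) in C3-like cells, 66.5 CPM in C1-like cluster 2, 57.0 CPM in cluster 5, 44.7 CPM in C1-like cluster 4 and 5.68 CPM in the cycling cluster 7. In the liver it was 66.5 CPM (56.8 to 77.4) in C6-like, 48.5 CPM (34.7 to 66.1) in C7-like, 13.6 CPM in cluster 10, 10.5 CPM in C3-like, 9.70 CPM in C8-like, 4.73 CPM from 1 UMI in cluster 5, 3.57 CPM in C5-like and 1.31 CPM (0.630 to 2.42) in C4-like cells. C6-like and C3-like thymic cells did not differ beyond counting error, and both stood above the next group, hepatic C6-like cells, with which C1-like cluster 2 was level. A further step lay between C1-like cluster 4 and the 7 groups that followed it, a log2 difference of 1.72 (0.15 to 4.00) to cluster 10. After each cell was thinned to 1500 UMIs, an Itgae UMI was found in 18.0% (12.6% to 24.4%) of C3-like and 16.9% (11.5% to 23.4%) of C6-like thymic cells. The lowest share was 0.189% (0.0614% to 0.441%) in C4-like cells. Unthinned, the shares were 27.5%, 25.9% and 0.378%, and the median depths of these groups were 3104, 2779 and 2715 UMIs.

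Itgb7, the partner of both Itgae and Itga4, was highest in C6-like cells of either tissue. Its level there was 799 CPM (721 to 882) in the thymus and 771 CPM (737 to 806) in the liver, values that did not differ beyond counting error. The next group, C7-like cells, had 408 CPM (365 to 454), a log2 difference of 0.92 (0.75 to 1.09) from hepatic C6-like cells. C5-like cells followed at 360 CPM, C4-like at 284 CPM, cluster 10 at 281 CPM, hepatic cluster 5 at 255 CPM and hepatic C3-like cells at 234 CPM. In the thymus C3-like cells had 202 CPM and cluster 5 had 195 CPM, whereas C1-like cluster 4 had 96.97 CPM, C1-like cluster 2 had 63.8 CPM and the cycling cluster 57.6 CPM, the lowest 3 of the 14 groups. C8-like cells had 177 CPM. Thinned to 1500 UMIs, 71.7% (64.2% to 78.4%) of thymic and 68.4% (65.0% to 71.6%) of hepatic C6-like cells held an Itgb7 UMI. The share was 7.33% (5.26% to 9.89%) of the cycling cells. Unthinned, these shares were 86.7%, 87.5% and 27.6%. The cycling cells were deep, with a median of 7079.5 UMIs against 2628.5 in C1-like cluster 2, where 15.3% held Itgb7 unthinned. Their low place therefore holds relative to their total UMIs, not per cell.

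Itga4 ran differently from Itgb7. It was highest in C7-like cells, 234 CPM (202 to 270), and in the 79 hepatic cells of cluster 5, 194 CPM (139 to 263), and low where Itgb7 peaked, with 24.7 CPM (18.9 to 31.6) in hepatic and 10.2 CPM (3.32 to 23.8) from 5 UMIs in thymic C6-like cells. C8-like cells had 133 CPM, hepatic C3-like cells 103 CPM, C5-like cells 71.7 CPM, cluster 10 had 63.5 CPM and C4-like cells had 48.9 CPM. Within the thymus the level was 10.2 CPM (7.07 to 14.1) in C1-like cluster 2, 34.1 CPM in C1-like cluster 4, 43.2 CPM in the cycling cluster, 66.8 CPM in C3-like cells and 92.3 CPM (82.1 to 103) in cluster 5. The intervals of the C1-like clusters did not meet.

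The β1 chain Itgb1 was highest in hepatic C6-like cells. Its level of 157 CPM (142 to 173) there was a log2 difference of 0.67 (0.49 to 0.85) above that of C4-like cells, 98.3 CPM. C8-like (97 CPM), C7-like (92.2 CPM), C5-like (91.6 CPM) and thymic C3-like cells (90.8 CPM) were level with C4-like cells within counting error. Cluster 10 had 72.6 CPM, thymic C6-like cells 67.4 CPM, hepatic cluster 5 had 66.2 CPM and hepatic C3-like cells 59.4 CPM. The other 4 thymic groups held the lowest levels, from 34.5 to 42.7 CPM, and neighbours among them did not differ beyond counting error.

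Itga1, the collagen-binding α chain, was highest in 3 liver classes and nearly absent from the thymus. It reached 50.9 CPM (36.7 to 68.9) in C7-like, 50.04 CPM (45.4 to 55.1) in C5-like and 29.0 CPM (25.3 to 33.1) in C4-like cells. C5-like cells lay above C4-like cells by 0.79 (0.55 to 1.03) on the log2 scale. Cluster 10 had 18.2 CPM from 4 UMIs, C8-like cells 12.1 CPM from 5 UMIs, hepatic C3-like cells 10.3 CPM and hepatic C6-like cells 5.17 CPM. In the thymus 7 UMIs were counted in all, 5 of them in C3-like cells (8.56 CPM, 2.78 to 19.99) and 1 in the cycling cluster, and none was found in the C1-like clusters, cluster 5 or C6-like cells. With the limit for a count of 0 set at 3 UMIs, for counting error only, the level could be up to 0.578 CPM in C1-like cluster 4 and up to 6.13 CPM in thymic C6-like cells. Thinned, 7.67% (6.73% to 8.68%) of C5-like cells and 8.42% (5.42% to 12.4%) of C7-like cells held an Itga1 UMI, against 0 of 1261 cells in C1-like cluster 2, which by the same limit of 3 allows a share of cells with a UMI of up to 0.238%; unthinned, the shares were 13.3%, 14.2% and 0%.

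Of the LFA-1 chains, Itgb2 varied more than Itgal. Itgb2 was 366 CPM (326 to 410) in C7-like, 301 CPM (289 to 314) in C4-like and 295 CPM (284 to 307) in C5-like cells, the last pair level within counting error, and 259 CPM in C8-like cells. Cluster 10 had 254 CPM, hepatic cluster 5 had 217 CPM, hepatic C3-like cells 175 CPM and thymic C3-like cells 173 CPM. C6-like cells had 118 CPM in the thymus and 111 CPM in the liver, below C3-like cells of either tissue. The lowest levels were 92.9 CPM in thymic cluster 5, 65.9 and 63.4 CPM in the C1-like clusters and 51.2 CPM in the cycling cluster. Itgal was highest in C8-like cells, 252 CPM (206 to 306), in which myeloid genes were also highest; the part of these transcripts in the Itgal level was not tested. Otherwise Itgal ran from 60.3 CPM in the cycling cluster to 167 CPM (158 to 177) in C4-like cells. C1-like cluster 2, at 132 CPM (120 to 145), was within counting error of its neighbours in the order, C6-like cells of the thymus (137 CPM) and the liver (124 CPM), whereas its Itgb2 level was among the lowest.

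Itgav and Itgb3, which can form 1 receptor, had opposite extremes. Itgav was highest in C5-like cells, 54.9 CPM (50.02 to 60.2), then 41.2 CPM (24.0 to 66.0) in C8-like cells. It was 28.4 CPM in hepatic cluster 5, 21.8 CPM in C4-like, 19.9 CPM in hepatic C6-like, 18.2 CPM in cluster 10, 18.0 CPM in hepatic C3-like and 14.6 CPM in C7-like cells. In the thymus it ran from 4.64 CPM in C1-like cluster 2 to 15.4 CPM in C3-like cells. Itgb3 was highest in C1-like cluster 2, 39.2 CPM (32.8 to 46.4), followed by 34.99 CPM in thymic cluster 5, 33.1 CPM from 7 UMIs in hepatic cluster 5, 32.7 CPM in thymic C6-like cells and 24.1 CPM in C1-like cluster 4. C5-like cells, with the highest Itgav, had 1.91 CPM (1.09 to 3.10) of Itgb3 from 16 UMIs, against 16.2 CPM (13.4 to 19.3) in C4-like cells. Itgb3 is also a platelet gene. The 5 platelet genes counted summed to at most 1.71 CPM in any thymic group, to 6.37 CPM in hepatic C6-like cells and to 63.1 CPM in C8-like cells, and their part in the Itgb3 levels was not tested.

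**Figure D1:**
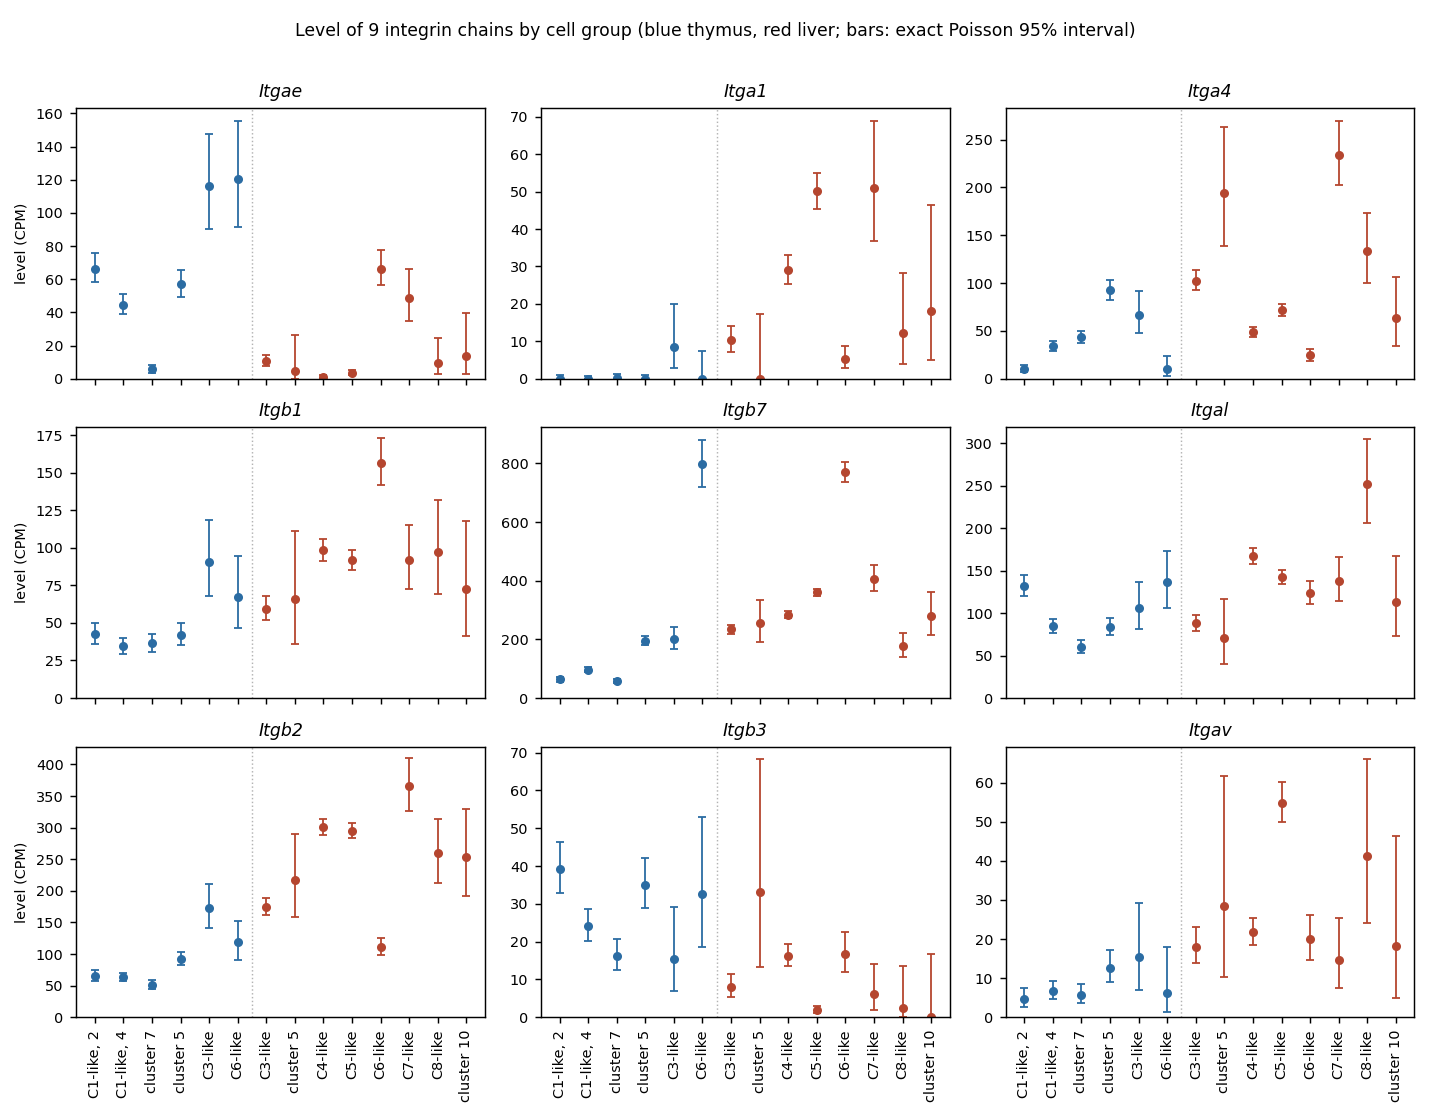
Level in CPM of each of the 9 integrin chains (vertical axes, each from 0) in 14 cell groups (horizontal axes, 6 thymic groups in blue and 8 liver groups in red), with points for the summed level and bars for the exact Poisson 95% interval. Itgb7 peaks at 799 and 771 CPM in C6-like cells of both tissues, Itgae at 120 and 116 CPM in thymic C6-like and C3-like cells, and Itga1 at 50.9 and 50.04 CPM in C7-like and C5-like liver cells.

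The upstream sequence of 4 chains is shown because their levels differed most between groups among the 5 members with an entry in the promoter table, Itga1, Itga4, Itgb1, Itgb7 and Itgav. Itga1 was highest in C7-like and C5-like cells and Itgav in C5-like cells, and Itga4 and Itgb7 can form 1 receptor but peaked in different classes. Each sequence holds the 250 bases before the gene's start in RefSeq, on build GRCm38.p6. Positions are counted back from the start. Capitals mark matches, on either strand, to the Runx core TGTGGT or the Ets core GGAAGT. The T-box half-site AGGTGT and the ROR half-site AGGTCA were searched as well and found in none of the 5, and no matches overlapped.

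Itga1 (chr13:115101965-115102214, minus strand): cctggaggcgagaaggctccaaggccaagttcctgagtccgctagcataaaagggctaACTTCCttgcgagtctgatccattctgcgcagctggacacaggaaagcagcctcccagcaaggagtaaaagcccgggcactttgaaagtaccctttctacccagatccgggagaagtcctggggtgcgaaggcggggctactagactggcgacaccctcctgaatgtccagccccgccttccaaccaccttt
Itgav (chr2:83724147-83724396, plus strand): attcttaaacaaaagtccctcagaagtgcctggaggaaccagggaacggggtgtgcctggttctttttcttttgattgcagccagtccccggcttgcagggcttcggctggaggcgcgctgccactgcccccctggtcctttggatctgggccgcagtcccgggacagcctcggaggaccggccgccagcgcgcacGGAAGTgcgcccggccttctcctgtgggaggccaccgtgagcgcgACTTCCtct
Itga4 (chr2:79255176-79255425, plus strand): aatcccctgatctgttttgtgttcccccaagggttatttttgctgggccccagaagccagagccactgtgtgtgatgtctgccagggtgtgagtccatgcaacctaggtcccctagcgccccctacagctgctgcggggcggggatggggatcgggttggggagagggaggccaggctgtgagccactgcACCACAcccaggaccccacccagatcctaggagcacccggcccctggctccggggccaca
Itgb7 (chr15:102231936-102232185, minus strand): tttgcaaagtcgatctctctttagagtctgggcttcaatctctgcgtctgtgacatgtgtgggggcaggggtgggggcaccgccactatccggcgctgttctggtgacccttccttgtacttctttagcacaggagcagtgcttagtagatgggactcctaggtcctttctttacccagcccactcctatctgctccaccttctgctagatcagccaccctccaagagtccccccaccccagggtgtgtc

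The Itga1 window held 1 Ets core, at -192 to -187, and the Itgav window 2, at -54 to -49 and -9 to -4. The Itga4 window held 1 Runx core, at -60 to -55, and the Itgb7 window held no match. Of 32851 promoters of this length, 19.7% held the Ets core, 14% the Runx core, 11.8% the T-box half-site and 14% the ROR half-site. The matches are letters only and are not evidence of binding. The genes lie on GRCm38 at chr11:73090583-73147446 (Itgae), chr13:114953096-115101964 (Itga1), chr2:79255426-79333123 (Itga4), chr8:128685654-128733200 (Itgb1), chr15:102215995-102231944 (Itgb7), chr7:127296260-127335138 (Itgal), chr10:77530252-77565708 (Itgb2), chr11:104608000-104670476 (Itgb3) and chr2:83724397-83806916 (Itgav). In the annotation Itgae overlaps Haspin, Itga1 overlaps Pelo and Itga4 overlaps Cerkl, none of them on the same strand within the last 1000 bases, which the 3′ chemistry reads.

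The first comparison set all hepatic against all thymic cells. Of the 9 chains, 5 were at least 2-fold higher in the liver and 2 at least 2-fold lower, while over all 10869 genes with at least 50 UMIs the shares were 12.1% higher and 16.9% lower. The median log2 ratio was 1.21 for the chains and -0.22 for all genes tested. Itga1 had 31.0 CPM (28.8 to 33.3) in the liver and 0.410 CPM (0.165 to 0.845) in the thymus, 749 against 7 UMIs and a log2 ratio of 6.24 (5.19 to 7.56). Itgav had 32.5 against 7.68 CPM, a log2 ratio of 2.08 (1.81 to 2.36). Itgb2 had 260 against 72.2 CPM (1.85, 1.76 to 1.94), Itgb7 358 against 123 CPM (1.54, 1.47 to 1.61) and Itgb1 95.2 against 41.1 CPM (1.21, 1.09 to 1.33). Itga4 and Itgal were higher by under 2-fold, at log2 ratios of 0.76 (0.63 to 0.89) and 0.63 (0.55 to 0.72). The chains that ran the other way were Itgae, 12.8 CPM (11.4 to 14.3) in the liver and 47.1 CPM (43.9 to 50.4) in the thymus, 3.68-fold lower, and Itgb3, 9.35 against 27.2 CPM, 2.91-fold lower.

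These ratios compare mixtures of classes. C5-like and C4-like cells, 36.7% and 32.7% of the kept hepatic cells, had no more than 2 thymic cells each. Genes of the CD4 and CD8 coreceptors summed to 200 CPM in the liver and 13.4 CPM in the thymus, where bead depletion had been done, and their part in the ratios was not tested. C8-like cells held 104 of the 3386 hepatic Itgal UMIs, 107 of the 6278 Itgb2 UMIs and 17 of the 786 Itgav UMIs.

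Among the named classes, C3-like and C6-like cells had at least 50 cells in both libraries. In C3-like cells 1 of the 7 chains with at least 50 UMIs was past 2-fold. This was Itgae, at 10.5 CPM (7.46 to 14.5) in the liver and 116 CPM (90.4 to 148) in the thymus, 38 UMIs from 1081 cells against 68 UMIs from 178 cells, 11.04-fold lower (log2 ratio -3.47, -4.08 to -2.87). Over 5818 genes, 3.99% were at least 2-fold lower and 5.1% at least 2-fold higher. Thinned, an Itgae UMI was in 1.11% (0.575% to 1.93%) of hepatic and 18.0% of thymic C3-like cells. Itga4 was higher in the liver, 103 against 66.8 CPM (0.62, 0.14 to 1.14), and Itgb1 lower, 59.4 against 90.8 CPM (-0.61, -1.05 to -0.15), both under 2-fold. The intervals of Itgb7 (0.21), Itgal (-0.27), Itgb2 (0.01) and Itgav (0.23) all included 0. Itgb2 was level to within 0.33 on the log2 scale in either direction, at 175 and 173 CPM. Itga1 (37 and 5 UMIs) and Itgb3 (29 and 9 UMIs) had too few UMIs to be counted. Median depths were close, 3051 and 3104 UMIs per cell. Myeloid genes summed to 53.6 CPM in hepatic and 6.85 CPM in thymic C3-like cells and the CD4 and CD8 genes to 99.3 and 30.8 CPM, and their part in these ratios was not tested. Cluster 5, whose 1006 thymic cells had a lower Itgae level of 57.0 CPM and erythroid genes at 304 CPM against 44.5 CPM in thymic C3-like cells, scored highest for the C2 markers (a mean log2 ratio to the other cells of 1.14, against -0.07 for the C3 markers) and was left unnamed for its hemoglobin genes, by a limit set after the clusters had been seen. With it counted as C3-like, an alternative added after seeing the data, the log2 ratio of Itgae was -2.69, that of Itgb1 turned to 0.27, and 2 chains were past 2-fold.

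In C6-like cells Itgae was 66.5 CPM in the liver and 120 CPM in the thymus, 1.81-fold lower (-0.86, -1.29 to -0.40). Itgb7 was level, with a log2 ratio of -0.05 (-0.21 to 0.11). Of the 8 chains with at least 50 UMIs, 3 were past 2-fold, all higher in the liver, and over 5249 genes 6.27% were at least 2-fold higher and 2.15% at least 2-fold lower. Itgb1 rested on the most UMIs, 394 against 33, at 157 CPM (142 to 173) and 67.4 CPM (46.4 to 94.7), a log2 ratio of 1.22 (0.70 to 1.78). Itga4 (62 against 5 UMIs, 1.27, -0.03 to 2.95) and Itgav (50 against 3 UMIs, 1.70, 0.07 to 4.03) rested on few thymic UMIs. Without the cells of the highest doublet scores, or with cells thinned to 1500 UMIs, 1 chain instead of 3 was counted past 2-fold, and Itga4 had log2 ratios of 0.96 and 0.91. Itgb3 was 16.7 against 32.7 CPM (-0.97, -1.83 to -0.04). Itgal and Itgb2 had log2 ratios of -0.14 and -0.09 with intervals that included 0. Itga1 had 13 UMIs in 794 hepatic and 0 in 166 thymic cells. In hepatic against thymic C6-like cells, myeloid genes summed to 55.3 against 10.2 CPM, the CD4 and CD8 genes to 38.2 against 2.04 CPM, cycling genes to 48.96 against 18.4 CPM and endothelial genes to 5.17 against 0 CPM, and their part in these ratios was not tested.

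**Figure D2:**
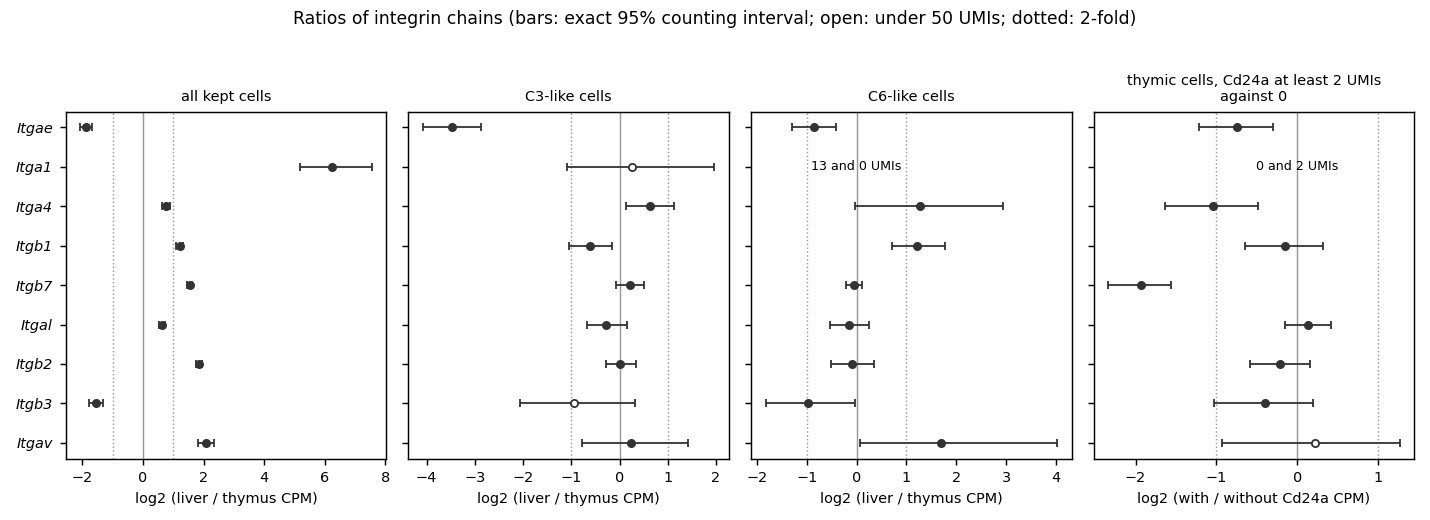
Log2 ratio of CPM (horizontal axes, a separate scale in each panel) of the 9 chains between liver and thymus in all kept cells, C3-like cells and C6-like cells, and between thymic cells with at least 2 and with 0 Cd24a UMIs. Bars are exact 95% counting intervals, dotted lines mark 2-fold, open points have under 50 UMIs, and UMIs are printed where a group had none. Itgae lies below 0 in all 4 panels, from -3.47 in C3-like to -0.74 in the Cd24a panel, while Itgb7 is at 1.54 in all cells and -0.05 in C6-like cells.

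Thymic stage was also read without clusters. Cd24a, the heat-stable antigen gene, marks immature thymic γδ cells. So 846 thymic cells with at least 2 Cd24a UMIs were set against 2504 cells with 0, after thinning to 1500 UMIs. A count of 0 at this depth does not show absence, so the second group may hold immature cells as well. The split also does not separate stage from cell type. Thymic cells included 166 C6-like cells with 799 CPM of Itgb7, and their part in the Itgb7 ratio was not tested. Itgb7 was 48.1 CPM (36.8 to 61.7) in cells with Cd24a and 184 CPM (171 to 198) in cells without, 3.83-fold lower (-1.94, -2.34 to -1.56). Itga4 was 24.4 against 50.3 CPM, 2.06-fold lower (-1.04, -1.64 to -0.49). These were the 2 of 7 counted chains past 2-fold, while over 7016 genes 3.21% were at least 2-fold lower and 1.03% at least 2-fold higher. Itgae was 39.4 against 66.0 CPM (-0.74, -1.21 to -0.30). The intervals of Itgb1, Itgal, Itgb2 and Itgb3 included 0, with log2 ratios from -0.40 to 0.13. When cells with 1 Cd24a UMI were added to the first group, 1 chain was past 2-fold.

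Partner chains differed in their order of levels across the 14 groups. Pearson's r of log2(CPM + 10) was 0.19 for Itgae and Itgb7, 0.06 for Itga4 and Itgb7, 0.19 for Itga4 and Itgb1, 0.59 for Itga1 and Itgb1, 0.63 for Itgav and Itgb1, 0.54 for Itgal and Itgb2, and -0.61 for Itgav and Itgb3. The highest r among the 36 pairs of members was 0.83, for Itga1 and Itgb2, and the lowest -0.77, for Itga1 and Itgb3. The 14 groups come from 2 libraries and differ in median depth, from 2425 UMIs in hepatic cluster 5 to 7079.5 in cluster 7. These values therefore describe the groups and carry no p.

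**Figure D3:**
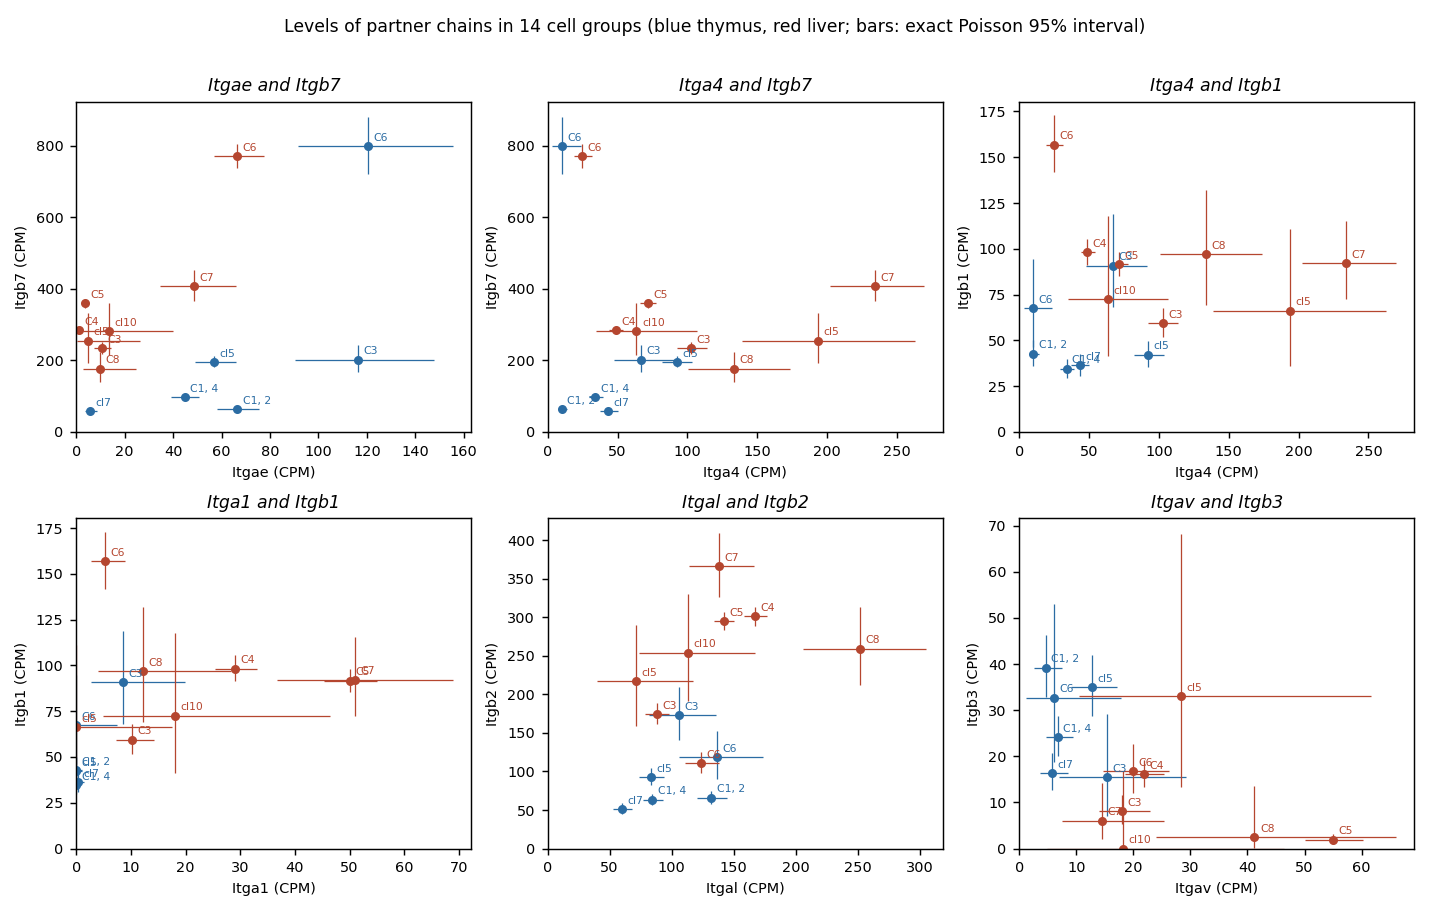
Level in CPM of an α chain (horizontal axes) against that of its β partner (vertical axes) in 14 cell groups, thymus in blue and liver in red, with exact Poisson 95% intervals. C6-like cells of both tissues stand at about the same Itgb7 level with 24.7 CPM or less of Itga4, and C5-like cells combine the highest Itgav (54.9 CPM) with 1.91 CPM of Itgb3.

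Within a group, cells with an α chain UMI were compared with cells without one for the share that held a UMI of the β partner, after thinning to 1500 UMIs. Among hepatic C6-like cells, 75.3% of the 73 cells with Itgae and 67.7% of the 721 cells without it held Itgb7. Among thymic C6-like cells the shares were 75.0% of 28 and 71.0% of 138. Both chains were seen in 6.93% (5.26% to 8.92%) of hepatic and 12.7% (8.00% to 18.7%) of thymic C6-like cells, against 0.236% (0.0951% to 0.486%) of C5-like cells. The 7 pairs of chains were compared in groups with at least 20 cells holding the α chain. These were 12 groups for Itgal and Itgb2, 9 for each pair with Itga4 and 6 for Itgae and Itgb7. There were 4 for each pair with Itgav and 3 for Itga1 and Itgb1. Over all of them, the intervals of the shares stood apart in 1 case. This was Itga4 and Itgb1 in C5-like cells, where Itgb1 was in 8.72% of the 298 cells with Itga4 and in 13.9% of the 2663 cells without it. Unthinned, these shares were 22.1% and 22.7%. Without thinning, 7 cases stood apart, among a larger number of groups with 20 such cells, and cells with more UMIs then enter both counts more often. By the thinned shares alone, the β chain was seen more often with the α chain in 6 of 12 groups for Itgal and Itgb2. The counts were 5 of 9 for Itga4 and Itgb7, 4 of 9 for Itga4 and Itgb1, and 5 of 6 for Itgae and Itgb7. They were 4 of 4 for each pair with Itgav and 3 of 3 for Itga1 and Itgb1.

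The genes whose levels ran most like each chain over the 14 groups were found among 6111 genes with at least 30 CPM in a group. For Itga1 these were Dapk2 (r = 0.96, highest at 121 CPM in C5-like cells), Soat2 (0.96) and Cd38 (0.95). For Itgb2 they were Gsap (0.95), Slamf7 (0.94) and Klre1 (0.94), the last 2 receptors of cytotoxic lymphocytes and highest in C5-like cells. For Itgb7 they were S100a13 (0.96), S100a11 (0.93) and Tspo (0.92), and for Itgb1 Gadd45b (0.93), Bcl2a1b (0.91) and Fosb (0.90), an immediate-early gene. Bcl2a1b belongs to a family of near-identical copies whose reads may be split. For Itgb3 they were Tax1bp1 (0.92), Rab2a (0.92) and Chd6 (0.90), each highest in C1-like cluster 2. For Itgal they were Ddrgk1, Mob1a and Dennd5a (0.89 to 0.90), highest in C8-like cells, for Itgav Acaa1a, Rhob and Zbtb7a (0.87 to 0.88), and for Itga4 Lrmp, Ehd1 and Hn1 (0.83 to 0.86). Itgae had the lowest values, Rcn2 (0.82), Nmrk1 (0.80) and Gm26917 (0.78). These genes were picked for their likeness among many, and the groups come from 2 libraries and differ in depth.

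Of the 17 other integrin subunits, 6 had at least 50 UMIs, and 2 were past 2-fold higher in the liver, none lower. Beside this list and those below stand the shares over all genes tested. Over all cells these were 12.1% higher and 16.9% lower, with a median log2 ratio of -0.22. Between C3-like cells they were 5.1% higher and 3.99% lower, with a median of -0.05. Itgax (αX, CD11c), another partner of Itgb2, had 49.8 CPM in the liver and 0.469 CPM in the thymus, 1204 against 8 UMIs and a log2 ratio of 6.73 (5.75 to 7.95). Its level was 115 CPM in C7-like and 110 CPM in C5-like cells, the groups with the highest Itga1, and 36.4 CPM in the myeloid-rich C8-like cells, 12.5 CPM in hepatic C3-like, 11.2 CPM in C4-like and 8.36 CPM in hepatic C6-like cells. Itgam (αM, CD11b), a further partner of Itgb2, had 72 against 1 UMI (5.67, 3.14 to 10.99), and 32 of the 72 lay in C8-like cells. Itga6, at 5.46 against 4.69 CPM, and Itgb4 had the lowest ratios, 0.22 and 0.66.

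Genes that switch integrins on or tie them to the cytoskeleton varied less. Of 26, 21 had at least 50 UMIs over all cells, with 2 past 2-fold higher, 1 lower and a median log2 ratio of -0.03. Sipa1, which turns off the integrin activator Rap1, had 147 against 41.4 CPM (1.83, 1.71 to 1.95). Apbb1ip, which links Rap1 to talin, had 160 against 64.4 CPM (1.31, 1.21 to 1.41). Stk4, a kinase that acts with Rassf5 downstream of Rap1, had 65.2 against 147 CPM (-1.17, -1.26 to -1.08), and Rasgrp2, which activates Rap1, 111 against 214 CPM (-0.94, -1.02 to -0.87). Between C3-like cells of the tissues none of the 21 was past 2-fold. Rasgrp2 was there 180 CPM in the liver and 90.8 CPM in the thymus, a log2 ratio of 0.99 (0.58 to 1.42), opposite in sign to that over all cells.

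Of 13 integrin ligands 3 had at least 50 UMIs in these T cells. Icam1, the ligand of LFA-1, had 103 against 18.1 CPM (2.50, 2.33 to 2.68), and Cdh1, the E-cadherin ligand of αEβ7, 2.90 against 0.996 CPM (1.54, 0.76 to 2.40), from 70 and 17 UMIs. Icam2 had 47.2 against 37.7 CPM (0.33, 0.18 to 0.47). Of the 17 thymic Cdh1 UMIs, 10 were in the C3-like cells, 17.1 CPM against 1.11 CPM in hepatic C3-like cells (4 UMIs). Thymic C3-like cells were also among the highest in Itgae, but Cdh1 did not follow Itgae in other groups. Thymic C6-like cells, with 120 CPM of Itgae, had 0 Cdh1 UMIs. Of the 70 hepatic Cdh1 UMIs, 48 lay in C5-like cells, where Itgae was 3.57 CPM. Icam1 was 84.6 and 73.6 CPM in hepatic and thymic C3-like cells.

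TGF-β is known to induce Itgae in T cells. Of 11 genes of TGF-β, its receptors and the Smads, 10 had at least 50 UMIs. Of these, 1 was past 2-fold higher in the liver and 4 lower, against 12.1% and 16.9% over all genes. The median log2 ratio was -0.78, against -0.22 over all genes. Tgfbr1 (22.2 against 10.1 CPM, 1.14) was the higher one and Tgfb1, at 176 against 172 CPM, was level (0.03, -0.04 to 0.10). The lower ones were Tgfbr3 (0.828 against 5.39 CPM, -2.70, -3.48 to -1.99), Skil (39.0 against 93.2 CPM, -1.26), Smad4 (-1.20) and Tgfbr2 (42.8 against 91.9 CPM, -1.10). Between C3-like cells, where Itgae was 11.04-fold lower in the liver, Skil (49.1 against 135 CPM, -1.46, -1.85 to -1.06) and Ski (21.6 against 53.1 CPM, -1.29, -1.91 to -0.64), repressors of Smad signalling and in the case of Skil also a TGF-β target, were past 2-fold lower. Tgfbr2 (-0.36), Tgfb1 (-0.25) and Smad7 (-0.02) had intervals that included 0. In thymic C3-like cells Tgfbr2 was 56.5 CPM from 33 UMIs and Tgfb1 was 163 CPM. Thymic cluster 5, not counted as C3-like, had 130 CPM of Tgfbr2 and 166 CPM of Tgfb1, so the Tgfbr2 ratio depends on leaving that cluster out. The part of TGF-β signalling in the Itgae ratio was not tested.

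Genes of tissue residence were mostly higher in the liver, as was Itga1. Of 11 tested, 8 were past 2-fold higher in the liver and none lower, with a median log2 ratio of 2.61. Zfp683 (Hobit), a residence factor, had 10.6 against 0.117 CPM (6.50, 4.64 to 9.56, from 257 and 2 UMIs) and Prdm1 (Blimp-1) 16.6 against 0.645 CPM (4.69, 3.83 to 5.70). By class, Zfp683 did not follow Itga1. C7-like cells, among the highest in Itga1, had 6.07 CPM (1.97 to 14.2) of Zfp683 from 5 UMIs. C5-like and C4-like cells had 13.7 and 14.6 CPM of Zfp683. Prdm1 was 19.4 CPM in C7-like, 16.8 CPM in C5-like and 20.4 CPM in C4-like cells. Ahr (-0.72) and Nr4a1 (-0.71), the latter an activation-induced factor, had the lowest ratios over all cells. Between C3-like cells 1 of 9 was past 2-fold, Nr4a1 at 317 against 111 CPM (1.51, 1.15 to 1.89), opposite in sign to that over all cells. The thymic value came from 65 UMIs. Thymic cluster 5, not counted as C3-like, had 299 CPM of Nr4a1, so this call depends on leaving that cluster out.

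Of 7 egress and recirculation genes, 3 were past 2-fold higher in the liver and 3 lower. The highest were S1pr5, an egress receptor of cytotoxic cells, with 173 UMIs in the liver and 0 in the thymus, and Ly6c2 (387 against 30.9 CPM, 3.65). Of the 173 S1pr5 UMIs, 121 lay in C7-like cells (147 CPM), which were also among the highest in Itga1. The lowest were S1pr1 (36.8 against 143 CPM, -1.96), the receptor for exit from the thymus, and Klf3 (94.8 against 217 CPM, -1.19). Within C3-like cells 3 of 6 were past 2-fold higher in the liver and none lower, while Itgae was lower. They were Klf2 (2544 against 668 CPM, 1.93), a factor that induces S1pr1, Ccr7 (176 against 49.7 CPM, 1.83), a lymph node homing receptor, and S1pr1 itself (132 against 65.1 CPM, 1.02), opposite in sign to that over all cells. Ly6c2 and Ccr7 are among the genes that led the C3-like cluster. S1pr1 and Ccr7 are also among those that led cluster 5, which was not counted as C3-like. Its 1006 thymic cells had 367 CPM of S1pr1, 204 CPM of Ccr7 and 1014 CPM of Klf2. The S1pr1 and Ccr7 ratios between C3-like cells therefore depend on leaving cluster 5 out.

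**Figure D4:**
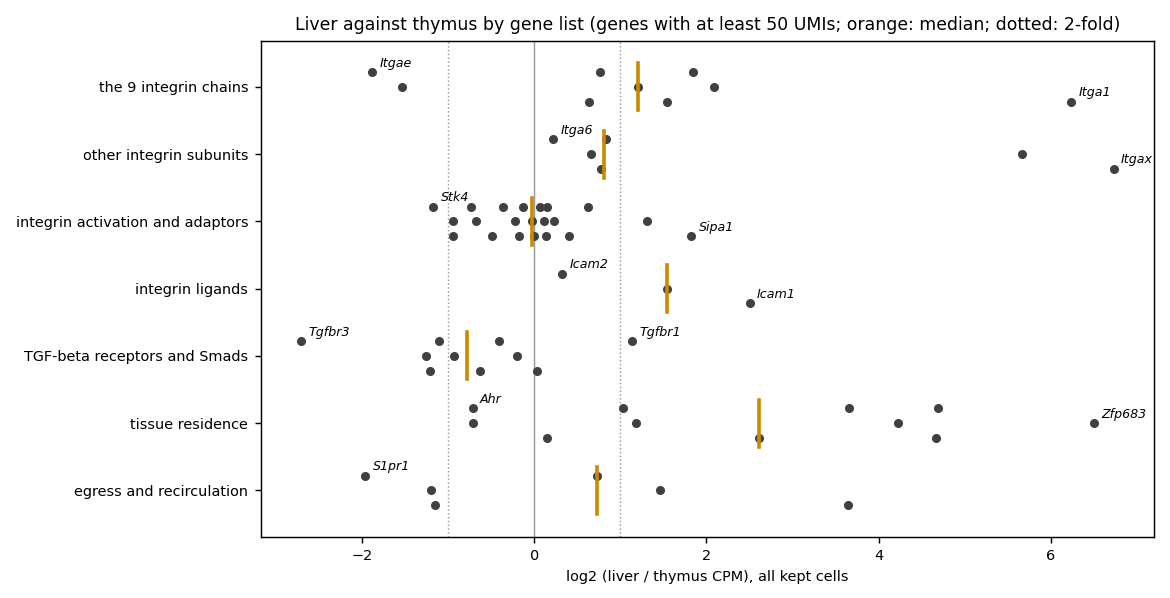
Log2 ratio of liver to thymus CPM over all kept cells (horizontal axis) for the 9 chains and the genes of 6 lists with at least 50 UMIs, 1 point per gene, with the orange bar at the list's median and dotted lines at 2-fold; S1pr5, with 0 thymic UMIs, is not drawn. Medians run from -0.78 for TGF-β genes to 2.61 for residence genes, and the 21 activation genes lie between -1.17 and 1.83.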

How the data were processed

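The authors sequenced 10x 3′ libraries and deposited 1 matrix per tissue of unnormalized UMI counts. Per the labels' processing notes, mm10, Cell Ranger (version not given) and Seurat 3.0 were used, and the paper's methods name another Seurat version. Depth was 25040963 UMIs in the liver and 17371662 in the thymus. Of the thymic matrix, 2 lines that named no gene and cell were dropped. The study's further limit of 50% ribosomal UMIs was not applied (12 kept hepatic and 0 kept thymic cells exceed it) and was tried as an alternative. Its methods state fewer cells for both tissues than were kept here.

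Cells were kept with 800 to 4000 genes and at most 6% mitochondrial UMIs. The libraries were joined and clustered with Seurat 5.3.0 (R 4.3.3) (LogNormalize, 2000 variable genes of which 1998 remained without the members, 30 principal components, resolution 0.6). Clusters were named for the class with the highest marker score, a mean log2 ratio to the other clusters (at least 0.5, leading by 0.2, at least 3 markers detected), unless 2 or more of its 10 leading genes belonged to B cell, erythroid, cell cycle or interferon lists. Scrublet's automatic threshold (scanpy 1.11.5) marked 1 hepatic and 2 thymic cells, too few for it to have worked, so no cell was removed as a doublet.

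"Past 2-fold" means a ratio of at least 2 with at least 50 UMIs over both groups. Binomial intervals on shares are exact Clopper-Pearson intervals at 95%. PCR duplicates are collapsed by UMIs, and a fold of 2 is a description, not a test. Thinning drew 1500 UMIs per cell (seed 11) and left out 5 hepatic and 7 thymic shallower cells. Genes named beside the members are, for each chain, the 3 with the highest correlation of log2(CPM + 10). In each list they are the 2 highest and 2 lowest ratios over all cells and those past 2-fold between C3-like cells. Rasgrp2 in C3-like cells and the TGF-β genes Smad4, Tgfbr2, Tgfb1 and Smad7 were added after their values had been seen. So were the levels by class of Cdh1, Icam1, Zfp683, Prdm1 and S1pr5, and the levels of listed genes in thymic cluster 5. The result of 1 listed gene is not reported here, and counts leave it out. Members and lists were chosen with earlier results of these data known. Positions come from GENCODE M21 and promoters from the RefSeq table. The steps were tested on simulated counts, in numpy 2.4.6, scipy 1.17.1, pandas 2.3.3 and matplotlib 3.10.9 under Python 3.11.15. Alternatives changed 1 choice at a time; 3 were added after seeing the data (removing barcodes found in both libraries, counting cluster 5 as C3-like, removing the cycling cluster).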

Additional observations from a re-analysis of the deposited data

Results flagged for a closer look

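Itgb1 moved in opposite directions between the tissues in the 2 named classes found in both. Its log2 ratio of liver to thymus was -0.61 (-1.05 to -0.15) in C3-like cells, from 214 and 53 UMIs, and 1.22 (0.70 to 1.78) in C6-like cells, from 394 and 33 UMIs. With 1 library per tissue the difference was not tested. The ratio in C3-like cells was 0.27 when cluster 5 was counted as C3-like.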

How the results depend on the processing

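The 117 levels of the 9 chains, with both C1-like clusters pooled, were recomputed under the alternatives, 1611 values in all, of which 1488 stayed within the interval of the reported level and 123 moved outside it, most of them with mitochondrial and ribosomal-protein genes left out of the total, which raises every level. Of 328 recomputed log2 ratios, 309 stayed within the reported interval, 18 moved outside it, and 1 whose interval lay off 0 turned sign, Itgb1 in C3-like cells at 0.27 with cluster 5 counted as C3-like, a setting added once the data had been seen. The signs of Itga1, Itgav and Itgb2 in C3-like cells, whose reported intervals include 0, changed in some settings. The number of chains past 2-fold in C3-like cells, 1 as reported, was 2 with cluster 5 counted as C3-like and 3 at a threshold of 1.5-fold. In C6-like cells, 3 as reported, it was 5 at 1.5-fold, 1 without the cells of the highest doublet scores and 1 with thinned cells; fewer UMIs remain in these last settings. In the Cd24a split, 2 as reported, it was 1 with at least 1 Cd24a UMI. With thinned cells 5 of the 9 chains had the same highest group as reported. For the share of cells with a UMI, the highest group was that reported for 5 of 9 chains without thinning and for 4 of 9 with another random seed (12). Cases in which the shares of a partner chain stood apart were 7 without thinning and 1 with it. The cause of these changes was not tested. Chains with few UMIs, Itga1 in the thymus and Itgb3 and Itgav in small groups, are limited by depth. No paired analysis was possible because each tissue has 1 library and no replicate numbers.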
